A study of Arabidopsis thaliana with 6 samples.

Results

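The most abundant nuclear transcripts of Arabidopsis thaliana root tips were described as 200 probe sets of the Affymetrix ATH1 array, a chip that measures one transcript or a small group of related transcripts with each probe set. Members were chosen by level, as the probe sets with the highest mean signal over the 2 arrays of untreated root tips at 0 min, taken from the 13415 probe sets whose annotation names exactly 1 nuclear gene. The array held 22746 probe sets that are not controls, so the members are 200 of these. Of the 200 highest of these 22746 by the same mean, 82 were annotated to exactly 1 nuclear gene, and the last member ranked 485 among them all, so the list holds the most abundant transcripts only within the annotated one-gene probe sets. On each array the highest signal of a probe set outside the list was above that of every member. Levels chose the members, so each level at 0 min, and each difference from 0 min, is a description without a test. Root tips came from seedlings of 7 days grown in continuous light on tilted plates of nutrient medium with sucrose. There were 3 groups of 2 arrays: the gibberellin (GA) group at 120 min, untreated Col-0 at 120 min, and untreated Col-0 at 0 min. The GA group had the source name GA2oxOE1I, the Col-0 background and a gene knock out label, so plant line and GA treatment cannot be told apart. The untreated groups shared the Col-0 line and carried no such label. Gene, dose and solvent were not given for the GA group in the labels used here. Replicates are not stated to be separate cultures, so p-values measure only the spread between these arrays, which may be technical.

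Gibberellins are plant hormones that promote cell elongation and division, and in the root they act in the growing zone behind the tip. A short list of transcripts makes up a large share of the messenger RNA of most tissues, and such transcripts often encode proteins that every cell needs in quantity. In roots of the cabbage family they also include proteins of the ER body, a spindle-shaped compartment of the endoplasmic reticulum that stores a beta-glucosidase. Where signal is compared between arrays below, it is the MAS5 signal on a linear scale. A signal of one probe set says nothing about the level of another gene, because probe sets bind with unequal strength, so ranks order probe sets and not transcripts. In tissue samples, fewer cells of a type and less RNA per cell cannot be told apart.

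Array quality differed between the replicates. The ratio of 3′ to 5′ signal of the actin control was 14.8 and 2.52 for GA root tips, against 4.44 and 2.22 for untreated root tips at 120 min and 4.94 and 2.43 at 0 min, replicate 1 first. Replicate 1 had the higher ratio in each group, and the first GA array the highest of all. The part of this in the values below was not tested. Of 13 root markers, 2 were measured by a probe set that names 1 gene, and their summed signal was 266 and 353 in GA root tips, against 335 and 416 in untreated root tips at 120 min and 329 and 476 at 0 min. The 2 measured of 13 green tissue markers summed to 151 and 275 in GA root tips, against 183 and 462 in untreated root tips at 120 min and 228 and 276 at 0 min. None of 3 seed storage genes was measured this way, and the defining root markers PLT1, WOX5 and SHR were also not measured, so the tissue label was checked on few genes.

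The members spanned mean signals at 0 min of 7577 for AT3G60245 down to 1196 for AT1G62660, with a median of 2027. They all passed the filter on low values that the test below used. On each array they held a similar share of the summed signal of all 22746 probe sets. This share was 16.3% and 14.1% for GA root tips, against 15.5% and 13.2% for untreated root tips at 120 min and 15.9% and 13.9% at 0 min. The group means were 15.2% ± 1.56 in GA root tips, 14.3% ± 1.63 in untreated root tips at 120 min and 14.9% ± 1.41 at 0 min (SD, n = 2 each), so the groups overlapped. Replicate 1 had the larger share in every group. The first 50 members held 43.6% of the members' summed mean signal at 0 min, and the last 50 held 13.1%.

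**Figure D1:**
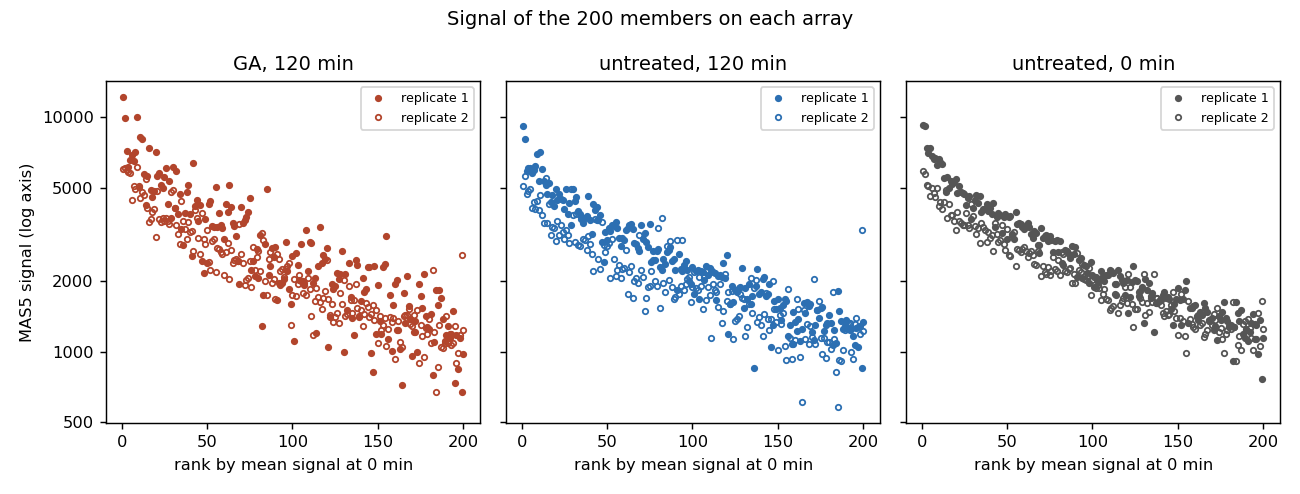
MAS5 signal (log axis) of the 200 members on each of the 6 arrays, against the rank by mean signal at 0 min, with 1 panel for each group and filled or open points for replicate 1 or 2. The order set at 0 min carries over to both groups at 120 min, with more scatter, and in these values as deposited replicate 1 lies above replicate 2 for most of the highest ranks.

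Most members also ranked high 120 min later. Of the 200, 151 were among the first 200 one-gene probe sets on all 4 arrays at 120 min, and 197 were among the first 400 on all 4. The members in the first 200 numbered 176 and 182 for GA root tips, against 184 and 175 for untreated root tips at 120 min and 190 and 189 at 0 min. The lowest rank any member took was 403 and 388 for GA root tips, against 296 and 448 for untreated root tips at 120 min and 331 and 265 at 0 min. Ranking by the GA arrays in place of the 0 min arrays would have chosen 188 of the same 200, and ranking by the untreated arrays at 120 min 190. At the edge of the list, AT4G16260 and AT1G62660 stood just inside with mean signals at 0 min of 1207 and 1196, and LCR69 and AT5G57290 just outside with 1193 and 1189.

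The genes of 169 members were given in the annotation by a locus identifier alone, and no role is assigned to them here. A gene name was given for 31 members, or 15.5%, against 12.6% of all 13415 one-gene probe sets. The account of functions therefore covers these 31, which held 14.5% of the members' summed mean signal at 0 min, while 42 of the first 50 members had no name. Searches of the annotated names for words of function classes placed 22 members. Words of carbon metabolism were in the names of 4 members, 2.0% of them, against 0.365% of all one-gene probe sets. Words of defence and stress, such as dehydrin, cold, drought, lectin and cysteine-rich, were in the names of 7 members, 3.5% of them, against 0.246%. The words searched included ones that fit members' own names, such as MDAR for ATMDAR2. The members' higher shares may thus be set by the choice of words, and are not read as a result about the members. No name held words for ribosomal proteins, translation factors or RNA binding proteins, among the members or among all one-gene probe sets, so those classes could not be counted.

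**Figure D2:**
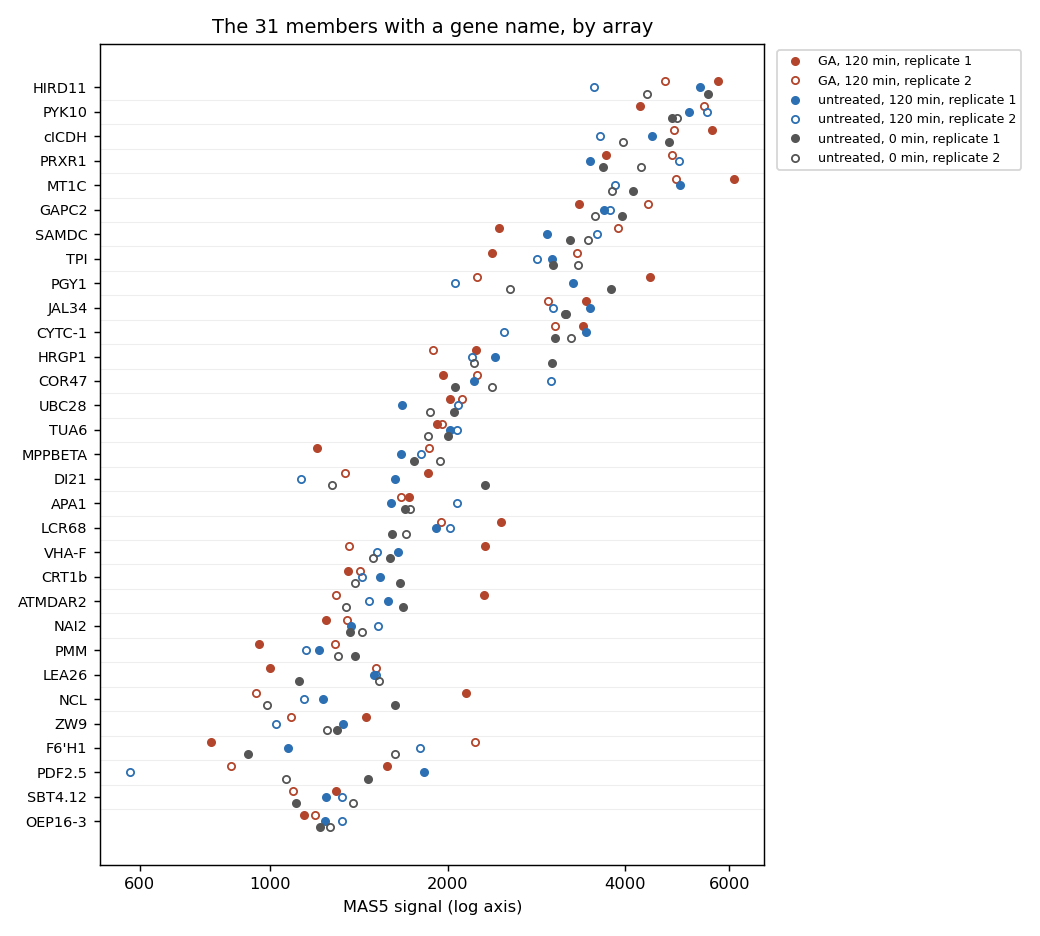
MAS5 signal (log axis) of the 31 members with a gene name, ordered from the highest to the lowest mean signal at 0 min, with the GA group above untreated at 120 min and at 0 min in each row and filled or open points for replicate 1 or 2. Points of TUA6, NAI2 and OEP16-3 lie close together on all 6 arrays. Those of F6'H1 lie far apart within each group, and those of PDF2.5 within both groups at 120 min.

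Enzymes of carbon metabolism were represented by 4 named members. The highest was cICDH, a cytosolic isocitrate dehydrogenase that makes NADPH, at rank 21. Its signal was 5617 and 4832 in GA root tips, against 4447 and 3620.3 in untreated root tips at 120 min and 4737 and 3961 at 0 min. Both GA arrays lay above all 4 untreated arrays. GAPC2, a cytosolic glyceraldehyde-3-phosphate dehydrogenase of glycolysis, read 3332 and 4375 in GA root tips, against 3676 and 3765 in untreated root tips at 120 min and 3944 and 3555 at 0 min. TPI, the cytosolic triosephosphate isomerase of the same pathway, read 2378 and 3313 in GA root tips, against 3005 and 2837 in untreated root tips at 120 min and 3015 and 3328 at 0 min. For both glycolytic genes the second GA array was higher than the first and the GA group spanned the untreated group at 120 min. PMM, a phosphomannomutase that feeds the mannose route to cell wall sugars and ascorbate, read 957 and 1287 in GA root tips, against 1207 and 1149.9 in untreated root tips at 120 min and 1392 and 1304 at 0 min.

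Of the mitochondrial proteins, CYTC-1, a cytochrome c that carries electrons in the respiratory chain, read 3388 and 3038 in GA root tips, against 3432 and 2489.7 in untreated root tips at 120 min and 3038 and 3233 at 0 min. MPPBETA, the beta subunit of the mitochondrial processing peptidase, read 1202 and 1860.4 in GA root tips, against 1664 and 1803 in untreated root tips at 120 min and 1751 and 1941 at 0 min. In each gene the groups overlapped, and the first GA array had the lowest MPPBETA signal of all 6. PGY1, whose locus name PIGGYBACK1 belongs to a protein of the large ribosomal subunit, read 4395 and 2238 in GA root tips, against 3256 and 2052 in untreated root tips at 120 min and 3779 and 2552 at 0 min. Replicate 1 of PGY1 was the higher in each group, by more than the difference between any pair of group means.

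Genes of redox and metal balance included the peroxidase PRXR1, of the secreted plant type that uses hydrogen peroxide, which read 3714 and 4794 in GA root tips, against 3477 and 4928 in untreated root tips at 120 min and 3669.9 and 4253 at 0 min. Replicate 2 was the higher in each group and all 3 groups overlapped. MT1C, a small cysteine-rich metallothionein that binds metal ions, read 6119.9 and 4883 in GA root tips, against 4946 and 3844 in untreated root tips at 120 min and 4116 and 3793 at 0 min. Both GA arrays were above both arrays at 0 min, but the second lay below the first untreated array at 120 min. ATMDAR2, a monodehydroascorbate reductase that regenerates ascorbate, read 2303 and 1294 in GA root tips, against 1584 and 1468 in untreated root tips at 120 min and 1676 and 1345 at 0 min, and its GA values bracketed the untreated ones.

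Dehydrins and late embryogenesis abundant proteins, hydrophilic proteins linked to cold and drought, gave 4 named members. The locus AT1G54410, with the synonym HIRD11 (a small dehydrin), was the highest of the 31 at rank 13 and read 5746 and 4677 in GA root tips, against 5351 and 3544 in untreated root tips at 120 min and 5516 and 4348 at 0 min. COR47, a cold-regulated dehydrin, read 1964 and 2243 in GA root tips, against 2218 and 2988 in untreated root tips at 120 min and 2053 and 2377 at 0 min. Replicate 1 was the higher of HIRD11 and the lower of COR47 in each group, so these dehydrins differed between replicates in opposite directions. The drought-induced DI21 read 1848 and 1339.9 in GA root tips, against 1624 and 1128 in untreated root tips at 120 min and 2309 and 1274 at 0 min. The locus AT2G44060 (LEA26) read 1000.0 and 1508 in GA root tips, against 1499 and 1511 in untreated root tips at 120 min and 1118 and 1531 at 0 min, and the first GA array was its lowest.

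Small cysteine-rich peptides of the plant defensin type, secreted peptides with antimicrobial members, were represented by LCR68 and PDF2.5. LCR68 read 2464 and 1951 in GA root tips, against 1906 and 2018 in untreated root tips at 120 min and 1606 and 1701 at 0 min, and each of its 4 values at 120 min was above both values at 0 min. PDF2.5 read 1576 and 857 in GA root tips, against 1823 and 579 in untreated root tips at 120 min and 1465 and 1063 at 0 min. It had one of the largest spreads of the 200, replicate 1 being the higher in every group. The next such peptide, LCR69, stood just outside the list.

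The ER body was represented by 2 members and the jacalin-related lectins, a carbohydrate-binding family, by JAL34. PYK10, the beta-glucosidase stored in root ER bodies, ranked 14 and read 4228 and 5444 in GA root tips, against 5124 and 5511 in untreated root tips at 120 min and 4805 and 4885 at 0 min. NAI2, a protein needed to form these bodies, read 1242 and 1350.4 in GA root tips, against 1372 and 1523 in untreated root tips at 120 min and 1365 and 1428 at 0 min. For NAI2 both GA arrays were below both untreated arrays at 120 min and both at 0 min, by small amounts. JAL34 read 3432 and 2955 in GA root tips, against 3486 and 3019.9 in untreated root tips at 120 min and 3169 and 3157 at 0 min, with GA and untreated values at 120 min that differed little within a replicate number.

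Protein folding and turnover had 4 named members. CRT1b, a calreticulin that binds calcium and assists folding in the endoplasmic reticulum, read 1355 and 1417 in GA root tips, against 1534 and 1430.5 in untreated root tips at 120 min and 1661 and 1394 at 0 min. UBC28, a ubiquitin-conjugating enzyme, read 2016 and 2114 in GA root tips, against 1672 and 2083 in untreated root tips at 120 min and 2046 and 1864 at 0 min. APA1, an aspartic protease, read 1717 and 1668 in GA root tips, against 1599 and 2070.4 in untreated root tips at 120 min and 1695 and 1722 at 0 min. The subtilase SBT4.12, a protease of the serine type, read 1292 and 1091 in GA root tips, against 1244 and 1321 in untreated root tips at 120 min and 1106 and 1382 at 0 min. In CRT1b both GA arrays lay below both untreated arrays at 120 min, while the other three overlapped.

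Of the transport proteins, the locus AT4G02620 (VHA-F), a subunit of the vacuolar proton pump, read 2309 and 1361 in GA root tips, against 1643 and 1516 in untreated root tips at 120 min and 1598 and 1493 at 0 min. The locus AT1G53210 (NCL), a sodium and calcium exchanger, read 2143 and 945 in GA root tips, against 1229.6 and 1142 in untreated root tips at 120 min and 1628 and 986 at 0 min. Their GA values stood on both sides of the untreated values. OEP16-3, a membrane protein of the OEP16 family, read 1139 and 1189.6 in GA root tips, against 1239 and 1322 in untreated root tips at 120 min and 1212 and 1261 at 0 min, and both GA arrays were below all 4 untreated arrays by small amounts.

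Among the remaining names, SAMDC, which makes the aminopropyl donor for polyamines, read 2442 and 3885 in GA root tips, against 2946 and 3579 in untreated root tips at 120 min and 3222 and 3453 at 0 min. The locus AT3G13610 (F6'H1), an enzyme of coumarin synthesis in roots, read 792 and 2222 in GA root tips, against 1069.5 and 1793 in untreated root tips at 120 min and 916 and 1626 at 0 min. Replicate 2 was the higher for both genes in each group. HRGP1, a hydroxyproline-rich glycoprotein of the cell wall, read 2233 and 1889.8 in GA root tips, against 2406 and 2198 in untreated root tips at 120 min and 3006 and 2212 at 0 min. Its probe set, with those of AT1G23720 and AT5G06630, is 1 of 3 with a suffix for probes shared with other sequences, so its signal may include similar genes and is uncertain. TUA6, an alpha-tubulin of the microtubules, is described with the stable members. ZW9 read 1454 and 1083 in GA root tips, against 1329 and 1022 in untreated root tips at 120 min and 1299 and 1246 at 0 min, and no role is given for it.

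The highest and lowest signals over the 6 arrays lay closer together in a typical member than in a typical tested probe set, while the SD on the log2 scale was no smaller. These measures are unlike. The ratio was taken on the signal itself, and the SD after adding 16, which narrows the spread of low signals more than that of members. The highest signal was less than 2-fold above the lowest in 165 members (82.5%), against 62.7% of the 13647 tested probe sets. The median ratio of highest to lowest was 1.59 in members and 1.79 in all tested. The SD of log2(signal + 16) had a median of 0.26 in members, against 0.23 in the next 200 ranks and 0.26 in all tested. After quantile normalization, computed for the SD after the data had been seen, the median SD was 0.19 in members, 0.23 in the next 200 ranks and 0.26 in all tested. The median of the first 50 members was then 0.14, against 0.26 as deposited. This normalization gives every array the same distribution of values, which draws the highest signals of the arrays together. The lower SD of members chosen for high signal may thus be set by the method, and is not read as stability.

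TUA6 was the steadiest member, with an SD of 0.058 on the log2 scale. Its signal was 1918 and 1953 in GA root tips, against 2018 and 2076 in untreated root tips at 120 min and 2000.5 and 1849 at 0 min. The 6 values lay within a ratio of 1.12, with both GA values under both untreated values at 120 min. AT3G08610 read 2212 and 2321 in GA root tips, against 2222 and 2045 in untreated root tips at 120 min and 2176 and 2090.0 at 0 min, within a ratio of 1.13. The next steadiest were OEP16-3, AT3G09630, AT4G31340 and NAI2, with SDs of 0.073, 0.078, 0.089 and 0.096 on the log2 scale.

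The largest spread was that of AT4G16260, which read 675 and 2579 in GA root tips, against 852 and 3297 in untreated root tips at 120 min and 767 and 1646 at 0 min. Replicate 2 was far above replicate 1 in all 3 groups, and the ratio of highest to lowest, 4.88, was the only one over 4. AT3G07230 read 3119 and 1061 in GA root tips, against 1645 and 919 in untreated root tips at 120 min and 2001 and 985 at 0 min, with replicate 1 the higher throughout. AT2G37190 read 6376 and 2689 in GA root tips, against 4257 and 2211 in untreated root tips at 120 min and 4300.0 and 2689.6 at 0 min, again with replicate 1 the higher. The SDs of these 3 loci were 0.96, 0.69 and 0.57 on the log2 scale. PDF2.5, F6'H1 and AT2G40765 had SDs of 0.61, 0.59 and 0.56. In each of these 6 members the replicate number, and not the group, separated high from low values.

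**Figure D3:**
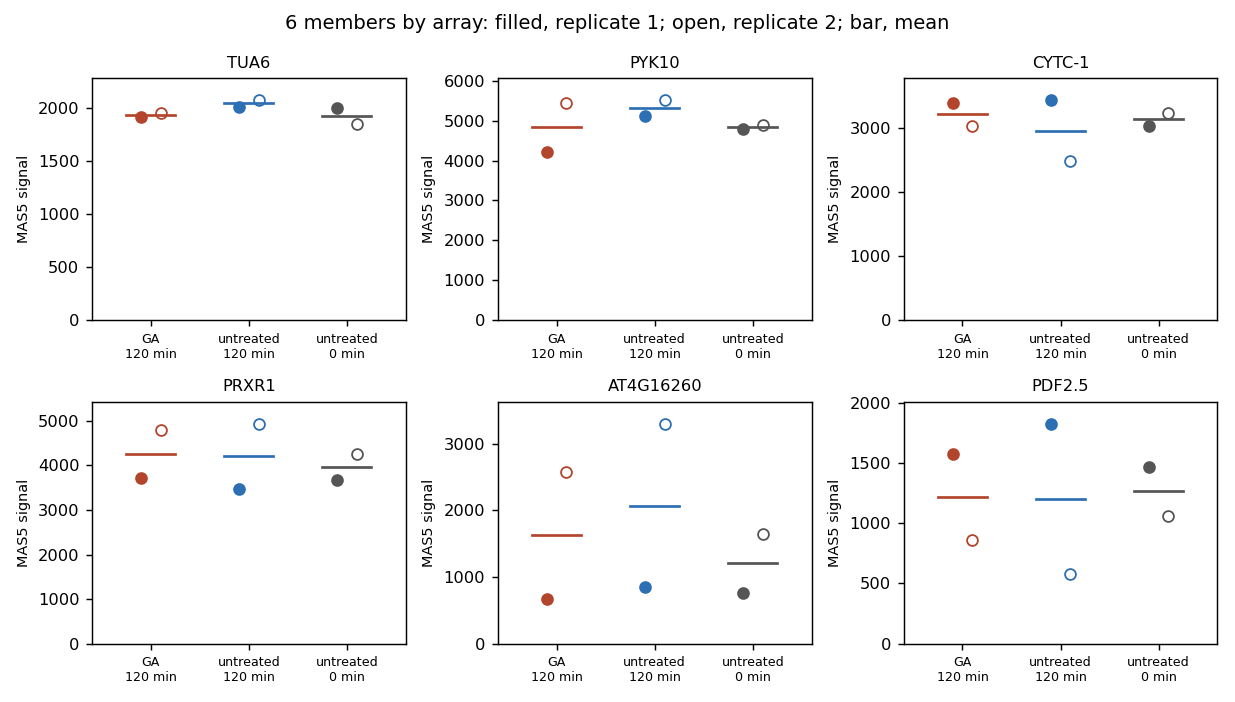
MAS5 signal (linear axis from 0) of 6 members on each array, in GA root tips, untreated root tips at 120 min and untreated root tips at 0 min, with filled points for replicate 1, open points for replicate 2 and a bar for the mean. TUA6 stays within a ratio of 1.12 over the 6 arrays, and AT4G16260 and PDF2.5 differ between the replicates of each group by more than their group means differ.

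The replicate number moved with the level of many members at once. Replicate 1 was above replicate 2 in 142 members (71.0%) in GA root tips, 160 (80.0%) in untreated root tips at 120 min and 157 (78.5%) at 0 min. Of all tested probe sets the shares were 53.6% in GA root tips, 53.1% in untreated root tips at 120 min and 52.2% at 0 min. In 126 members (63.0%) replicate 1 was the higher in all 3 groups, against 23.6% of all tested, and in 25 (12.5%) it was the lower in all 3, against 18.6%. The 0 min pair took part in choosing the members, but both pairs at 120 min did not. In the values as deposited, replicate 1 was higher in all 3 groups in 40 of the first 50 members, 32 of the next 50, 32 of the third 50 and 22 of the last 50. After quantile normalization this order did not hold, with 15 of the first 50 members, 24 of the next 50, 19 of the third 50 and 20 of the last 50, and in GA root tips the median of replicate 1 minus replicate 2 over the first 50 was then -0.10 on the log2 scale, against 0.34 as deposited.

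Among the members with a gene name, replicate 1 was the higher in all 3 groups in 12 of 31 and the lower in 9. The 12 were HIRD11, cICDH, MT1C, PGY1, JAL34, HRGP1, DI21, VHA-F, ATMDAR2, NCL, ZW9 and PDF2.5, and the 9 were PYK10, PRXR1, SAMDC, COR47, MPPBETA, NAI2, LEA26, F6'H1 and OEP16-3. Among the 169 members known by locus only, the counts were 114 higher and 16 lower, and the difference between these 2 sets was not tested. After quantile normalization replicate 1 was the higher in all 3 groups in 78 members (39.0%), against 22.3% of all tested, and in 7 of the 31 named members, with 15 lower. The part of the 3′ to 5′ ratio or of the array scaling in this pattern was not tested. Spearman's rank correlation over the 200 members, a description over probe sets that share each array, was 0.77 between the arrays of GA root tips, 0.83 between those of untreated root tips at 120 min and 0.89 between those at 0 min. Between GA and untreated root tips at 120 min it was 0.93 for both arrays of replicate 1 and 0.93 for both of replicate 2.

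**Figure D4:**
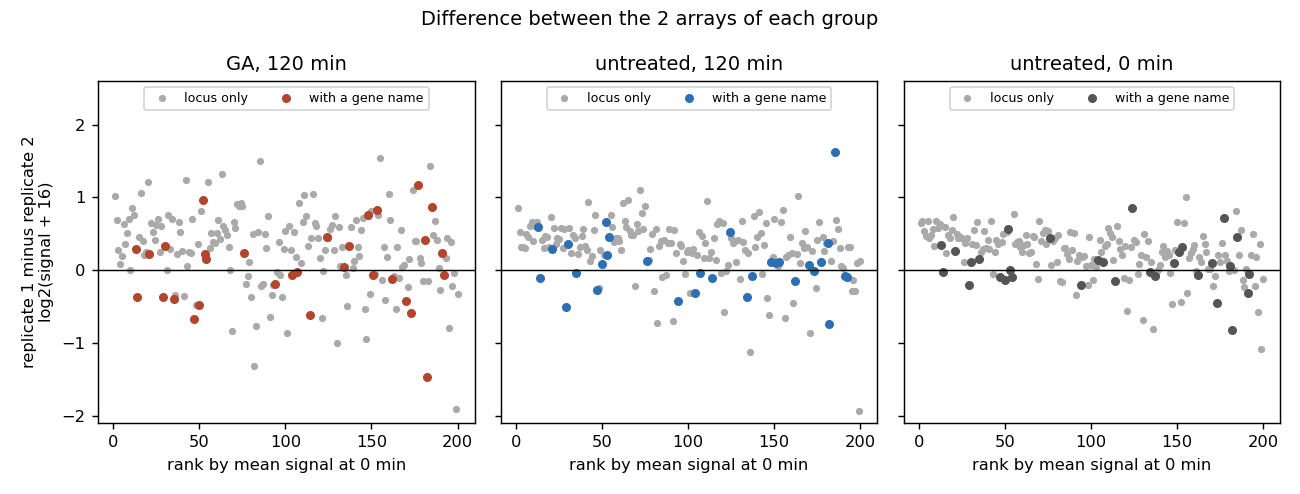
Difference between the arrays of each group, replicate 1 minus replicate 2 on log2(signal + 16), in the values as deposited, for the 200 members against their rank by mean signal at 0 min, with a panel for each group and coloured points for members with a gene name. In GA root tips 142 members lie above 0, in untreated root tips at 120 min 160 and at 0 min 157, and most of the first 50 do so.

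GA root tips were compared with untreated root tips at 120 min, which asks whether the treated group differed after the same time. The 0 min arrays that ranked the members enter this comparison through the shared estimate of spread, and through the mean signal used by the filter and the trend. No member passed the test, as limma called 0 of 13647 probe sets at an adjusted p of 0.05 (0.0%). The smallest adjusted p was 0.999. Without adjustment, 152 probe sets (1.11%) had p under 0.05, and 0 of them were members. No member differed by 2-fold or more, a size that 50 probe sets (0.366%) reached. Members' differences ranged from -0.50 to 0.56 on the log2 scale, with a median half-width of the 95% interval of 0.66 in a fit without a term for the replicate number. With such a term the median half-width was 0.357, and again 0 probe sets were called.

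By sign alone, 142 members (71.0%) had a higher mean in GA root tips and 58 (29.0%) a lower one, against 51.3% higher and 48.7% lower of all tested. The median difference was 0.12 on the log2 scale in members and 0.01 in all tested. It was 0.10 within replicate 1 and 0.15 within replicate 2. Without the first GA array 80 members were higher, and without the second untreated array at 120 min 65. Both of these runs leave unequal replicate numbers in the groups, so differences between replicates enter the counts. Among the members with a gene name 15 were higher and 16 lower, with a median of -0.03, and among those known by locus only 127 were higher and 42 lower, with a median of 0.13. The difference between named and unnamed members was not tested.

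The GA values lay wholly above the untreated values at 120 min in 3 members (1.5%), against 11.4% of all tested, and wholly below in 14 (7.0%), against 10.3%. The 3 were AT3G09200, cICDH and AT5G23900. For cICDH the difference was 0.38 on the log2 scale (95% interval -0.24 to 0.99, limma adjusted p 0.999). AT3G09200 read 7202 and 5970.0 in GA root tips, against 5879.6 and 4715 in untreated root tips at 120 min and 7421 and 5120.5 at 0 min, and its GA values overlapped those at 0 min. Named members wholly below were TUA6, CRT1b, NAI2 and OEP16-3, with differences of -0.08, -0.10, -0.16 and -0.14 on the log2 scale.

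The members with the largest differences in each direction had intervals that included 0 in the fit without a term for the replicate number. Highest in GA root tips relative to untreated ones at 120 min was AT3G07230, at 0.56 (95% interval -0.65 to 1.77), whose values are given above. AT5G20290 followed at 0.50 and read 10004 and 6134 in GA root tips, against 6950.5 and 4393 in untreated root tips at 120 min and 6250.2 and 4982 at 0 min. AT1G52060 stood at 0.49 (-0.23 to 1.21) and read 3131 and 2213 in GA root tips, against 2287 and 1535 in untreated root tips at 120 min and 2969.6 and 2113 at 0 min. AT3G53740, AT5G02610 and AT2G37190 stood at 0.47, 0.45 and 0.43. In each of these loci, AT3G07230 among them, the GA value was the higher within each replicate number while the groups overlapped.

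Lowest was AT5G64100, at -0.50 (95% interval -1.48 to 0.47), which read 1281 and 3206 in GA root tips, against 2237 and 3705 in untreated root tips at 120 min and 2388 and 2656 at 0 min. AT4G26010 stood at -0.49 (-1.33 to 0.34) and read 816 and 1586 in GA root tips, against 1296 and 2004 in untreated root tips at 120 min and 1298 and 1799 at 0 min. In both loci the first GA array gave the lowest of the 6 values and the groups overlapped. AT1G23720, AT5G47030, AT4G30170 and AT2G23120 stood at -0.44, -0.38, -0.37 and -0.36. AT4G30170 read 2059 and 2678 in GA root tips, against 2750.2 and 3373 in untreated root tips at 120 min and 2670.0 and 2459 at 0 min, with both GA values below both untreated values at 120 min. Leaving out the first GA array turned the sign of AT3G07230 to -0.21, of AT2G37190 to -0.19, of AT5G64100 to 0.15 and of AT5G47030 to 0.05. Leaving out the second untreated array at 120 min gave -0.04 for AT2G37190. These runs leave unequal replicate numbers in the groups, so differences between replicates enter their values. Within each replicate number the GA value was the lower in every locus of this lowest set, and the higher for AT3G07230 and AT2G37190. All these loci were chosen by the size of their difference, so this is a description.

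**Figure D5:**
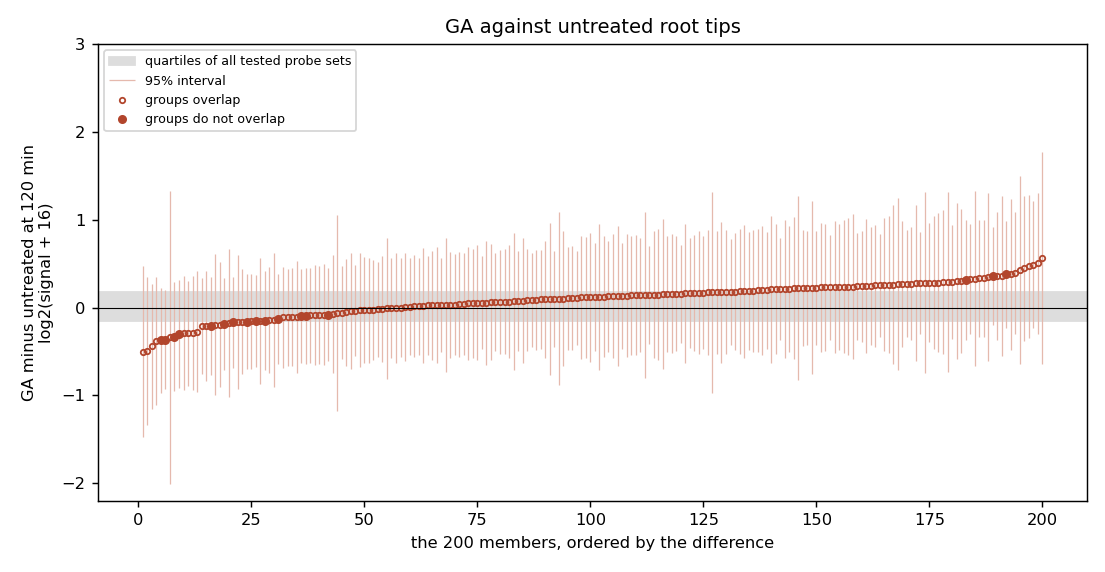
Difference between GA and untreated root tips at 120 min on log2(signal + 16) for the 200 members in order of its size, with the 95% interval of each, filled points where the groups do not overlap and a grey band for the quartiles of all tested probe sets (-0.16 to 0.17). Members run from -0.50 to 0.56, and every interval includes 0 in the fit drawn, which has no term for the replicate number. With such a term, 19 of the 200 members and 437 of all 13647 tested probe sets had an unadjusted limma p under 0.05.

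Untreated root tips at 120 min were set beside those at 0 min, as a description, since the 0 min arrays chose the members. The members' median difference was -0.09 on the log2 scale, against -0.02 in all tested, with a range of -0.65 to 0.57. It was -0.05 within replicate 1 and -0.13 within replicate 2. The median turned to 0.08 without the second array at 120 min and to 0.05 without the first array at 0 min. Both of these runs leave unequal replicate numbers at the 2 times, so differences between replicates enter. The mean was higher at 120 min in 65 members and lower in 135, against 46.3% higher and 53.7% lower of all tested. Values did not overlap between the times in 9 members that were higher at 120 min and 10 that were lower, against 11.3% and 15.8% of all tested. AT2G45180 had the lowest difference, -0.65, and read 717 and 1048 in GA root tips, against 1246 and 609 in untreated root tips at 120 min and 1436 and 1329.6 at 0 min. Its second untreated value at 120 min and first GA value were the lowest of the 6. AT4G16260, with the highest at 0.57, is the member with the largest spread between replicates. LCR68 was the named member with the highest difference, 0.24, and DI21 the one with the lowest, -0.34.

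GA root tips against untreated ones at 0 min gave a median of 0.02 on the log2 scale in members and -0.01 in all tested. The range was -0.66 to 0.53. Means were higher in 112 members and lower in 88, against 48.2% higher and 51.8% lower of all tested. Values did not overlap in 7 members that were higher and 17 that were lower, against 13.0% and 15.0% of all tested. This comparison shares the GA arrays with the test above and the 0 min arrays with the rule, so the values are given side by side only. In limma no probe set was called in either comparison with 0 min (0.0% each), with 147 (1.08%) at an unadjusted p under 0.05 for untreated root tips at 120 against 0 min and 352 (2.58%) for GA root tips against 0 min.

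A few members lie next to each other in the genome. In the order of protein-coding genes in the RefSeq annotation (assembly TAIR10.1), 5 pairs of neighbours covered 8 genes, namely AT1G52050, AT1G52060 and AT1G52070, then AT2G27710, AT2G27720 and AT2G27730, and AT3G02080 with MPPBETA. Differences were unequal among the first 3 neighbours. GA minus untreated at 120 min was 0.09 on the log2 scale for AT1G52050, 0.49 for AT1G52060 and -0.17 for AT1G52070. AT1G52070 read 999 and 2026 in GA root tips, against 1542 and 1676 in untreated root tips at 120 min and 1327 and 2142 at 0 min, with replicate 2 the higher in each group, whereas replicate 1 was the higher for AT1G52050 and AT1G52060. The members were spread over the nuclear chromosomes, with 43 on chromosome 1, 30 on 2, 50 on 3, 31 on 4 and 46 on 5.

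Of the 12 members with the highest signals, none had a gene name. The first, AT3G60245, read 12254 and 6027 in GA root tips, against 9191 and 5099.8 in untreated root tips at 120 min and 9263 and 5892 at 0 min. AT3G49910 read 9882 and 6098 in GA root tips, against 8061 and 5618 in untreated root tips at 120 min and 9148 and 5734 at 0 min. Replicate 1 exceeded replicate 2 in each group for both loci. Differences of GA minus untreated at 120 min were positive in all 12, against 51.3% of all tested, from 0.09 for AT1G52300 to 0.50 for AT5G20290 on the log2 scale, but in 4 of the 12 after quantile normalization. They were positive in 5 of the 12 without the first GA array and in 4 without the second untreated array at 120 min, and none passed the test. These runs leave unequal replicate numbers in the groups, and replicate 1 was the higher in every group in each of the 12. Within each replicate number, in the values as deposited, the GA value was the higher in all but AT1G52300 and AT5G19510. AT1G52300 was lower in GA within replicate 2, and AT5G19510 within replicate 1. The smallest gap between replicates was in the GA values of AT5G19510, which read 5086 and 5063 in GA root tips, against 5326 and 4029 in untreated root tips at 120 min and 6654 and 4178 at 0 min. AT2G34480 and AT1G67430 came at ranks 4 and 5, with differences of 0.14 and 0.17.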

How the data were processed

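Transcripts were measured on 6 ATH1 arrays, 2 in each group. Values were deposited by the authors as linear intensity per probe set, and MAS5 and GCOS are named without versions in the submitters' processing notes. No genome build is given in the sources used here. The mean intensity after leaving out the lowest and highest 2% was 100.0 on every array, and precision is limited by there being 6 arrays. Detection calls were not used here.

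Controls were left out of tests. Of the 22746 other probe sets, 14016 were listed in GEO's platform annotation, 503 of them with several genes. The rest, 8730, were unnamed here. Names were updated through RefSeq (TAIR10.1) by gene identifier. Roles were given only to the 31 members with a name or synonym in these tables, as general knowledge.

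log2(signal + 16) was modelled in R 4.3.3 with limma 3.58.1 (functions lmFit, eBayes with a trend, two-sided, Benjamini-Hochberg adjustment) on 13647 probe sets above the 40th percentile of mean signal (25.8), all 3 groups sharing 1 estimate of spread. Fold changes on this scale understate those of low signals. The script was tested on simulated data.

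Members and lists were chosen with earlier results of these data known. Members named in the text were some of the 12 highest, and the 6 with the largest difference in each direction between groups at 120 min. Up to 4 in each direction for 120 against 0 min were named. The 6 lowest and 6 highest in SD, those at the list's edge, and the highest 3 of each function class were also named. The other members with a gene name, and some loci that did not overlap or were neighbours, were added after their values were seen. The alternatives were quantile normalization, median centring, a pseudocount of 1, filters at the 60th percentile and none, no trend, a replicate block, leaving out each array, and other rankings. Replicate 1 minus replicate 2 correlated between groups with r of 0.342 (GA and untreated at 120 min), 0.36 (GA and untreated at 0 min) and 0.307 (both untreated groups) over probe sets. The labels name no shared batch for the numbers and there are only 2, so they were not taken to pair the arrays.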

Additional observations from a re-analysis of the deposited data

How the results depend on the processing

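No probe set was called in any of the 3 comparisons under quantile normalization, median centring, a pseudocount of 1, no filter, a filter at the 60th percentile, or no trend. The replicate block also called 0 in each, with 437, 403 and 805 probe sets at an unadjusted p under 0.05 for GA against untreated at 120 min, untreated at 120 against 0 min, and GA against untreated at 0 min. Leaving out 1 array gave 0 calls throughout, with 1 exception: GA against 0 min gave 0 to 7 calls, the 7 without the second GA array, where the lone GA array is assumed to vary like the other groups. The members' median difference of GA minus untreated at 120 min, 0.12 as deposited, was 0.042 after quantile normalization, 0.06 after median centring, and -0.061 to 0.296 with 1 array left out. For untreated at 120 minus 0 min, -0.09, it was -0.269 to 0.080 with 1 array left out. The number of members higher in GA than untreated root tips at 120 min, 142, was 65 to 151 with 1 array left out, 117 after quantile normalization and 123 after median centring, and for the 12 highest members, all 12 as deposited, it was 4 to 12 with 1 array left out and 4 after quantile normalization (alternatives chosen after seeing the data). With 1 array left out, the difference ran from -0.211 to 1.331 for AT3G07230, -0.190 to 1.051 for AT2G37190, -1.159 to 0.154 for AT5G64100 and -0.814 to 0.054 for AT5G47030. The other 8 of the 12 largest differences kept their sign in every alternative run, but some came close to 0. AT3G53740 fell to 0.008 without the second untreated array at 120 min, and AT4G26010 to -0.023 without the first GA array. AT1G52060 stayed at 0.202 or above. With an array at 120 min left out, the groups compared hold unequal replicate numbers, so differences between replicates enter these values. How far they did so was not tested. Other rankings shared 188 to 199 of the 200 members. The members' median 95% half-width for GA minus untreated at 120 min, 0.66 on the log2 scale, was 0.357 with the replicate block. With the block, 19 of the 200 members and 437 of all 13647 tested probe sets had an unadjusted limma p under 0.05. Without it, 0 members and 152 probe sets did. The half-widths and the counts of members were also added after seeing the data.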
